A study of Bos taurus with 15 samples.

Results

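The genes described here are the heat shock proteins and DNAJ cochaperones of the bovine endometrium, the lining of the uterus. They were chosen by name, as the entries of the gene table whose symbol starts with HSPA, HSPB, HSPD, HSPE, HSPH, HSP90, DNAJA, DNAJB or DNAJC followed by a digit or the letter A, with pseudogenes left out. This gave 72 of the 32671 entries: 13 HSPA, 9 HSPB, 2 HSP90, 4 DNAJA, 13 DNAJB and 28 DNAJC genes and 1 each of HSPD, HSPE and HSPH. The pattern leaves out HSP90B1, the HSP90 of the endoplasmic reticulum, because a B follows its stem, and it takes in HSPBAP1, which binds a small heat shock protein and is no chaperone itself. Of the 72 genes, 71 had a count in at least 1 library and 66 passed the filter on low counts and were tested. The 6 others were DNAJC5B, with no count in any library, and HSPB3, HSPB9, DNAJB3, DNAJB7 and DNAJB8, whose highest value was 0.553 CPM (DNAJB8 in Infertile replicate 2; CPM are counts scaled to a common library size with TMM factors).

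Heat shock proteins bind unfolded or partly folded proteins and let them fold, refold or be degraded. The HSP70 proteins (HSPA genes) do this in cycles of ATP use that J-proteins (DNAJ genes) start and that nucleotide exchange factors such as the HSP110 proteins reset, while HSP90 acts on late folding states of client proteins, among them the progesterone and estrogen receptors of the uterus. Small heat shock proteins (HSPB genes) hold unfolded proteins without ATP, and separate chaperone sets work in the endoplasmic reticulum and the mitochondria. Part of the family is made in every cell, and part is switched on by the transcription factor HSF1 under heat or other stress.

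Endometrium was sampled once from each of 15 heifers (Bos taurus) on day 14 of pregnancy, with 5 heifers labelled High-fertile, 5 Sub-fertile and 5 Infertile, and polyA RNA was sequenced. Every heifer of all 3 classes had the same synchronisation with prostaglandin (PGF), GnRH, a progesterone insert, estradiol and progesterone, and received an embryo produced in vivo on day 7; heifers without estrus had further GnRH and estradiol benzoate. After a uterine flush the biopsy was taken with forceps. The labels used here do not say how heifers were put into a class, or whether a conceptus was present in each at sampling. A biopsy holds glands, surface epithelium, stroma, vessels and muscle, so fewer cells of a type and less RNA per cell cannot be told apart in any value below. Each library is 1 heifer, and the spread within a class is spread between animals.

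Epithelium markers (9 genes) summed to 565 to 1637 CPM and stroma markers (8 genes) to 9886 to 38621 CPM over the 15 libraries, and none was at 0 in all of them. Libraries held 38017136 to 62858724 counts, of which the 72 genes took 0.769 ± 0.0908% in High-fertile, 0.771 ± 0.0610% in Sub-fertile and 0.800 ± 0.110% in Infertile heifers (SD, n = 5 each). Clustering on pseudogene and ribosomal RNA rows, with the number of sets fixed at 3, divided the libraries into sets of 8, 5 and 2. RN18S1 and LOC100295881 below are rows of these kinds, so their split is no separate check. The set of 2 was High-fertile replicate 1 and Infertile replicate 2, both with no count for RN18S1. The set of 5 held 3 Sub-fertile libraries (replicates 1, 2 and 5) and 2 Infertile ones (replicates 3 and 5). In these 5 the pseudogene LOC100295881 reached 42.3 to 53.8 CPM, and 0.443 to 1.53 CPM in the other 10. No High-fertile library was in the set of 5, so class and set overlap in part. Values within the set of 8 (4 High-fertile, 2 Sub-fertile and 2 Infertile libraries) or with the set as a covariate are given beside many fold changes, not all.

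Compared per length, as the deposited FPKM values allow, the endometrium held most of the constitutive cytosolic chaperones. HSPA8, the constitutive HSP70 of the cytosol, had a median of 488 FPKM over the 15 libraries (305 to 616), HSP90AB1 459 (350 to 725) and HSP90AA1 429 (338 to 567), and these 3 ranges overlapped from 350 to 567 FPKM. The small heat shock protein HSPB1 followed with 294 FPKM (161 to 623). HSPE1, the co-chaperonin of mitochondria, was at 168 FPKM (128 to 266) and HSPA5, the HSP70 of the endoplasmic reticulum, at 164 (131 to 212). HSPA1A, the stress-inducible HSP70, came next with 119 FPKM (79.5 to 252), well above HSPA6 (0.890; 0.420 to 2.30) and HSPA1L (1.34; 0.560 to 2.17), both of the same subfamily. A gene reference of another assembly than that of the counts lists HSPA1B as another name of HSPA1A. How reads of these near-identical copies were counted here is not known, so the level of HSPA1A is that of the pair or of one of them. Among the J-proteins DNAJB6 had the highest median, 70.5 FPKM. Spread between heifers differed widely: DNAJC14 spanned 26.2 to 35.4 FPKM, whereas the muscle small heat shock protein HSPB7 spanned 0.300 to 9.79 FPKM, a 32.6-fold range.

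**Figure D1:**
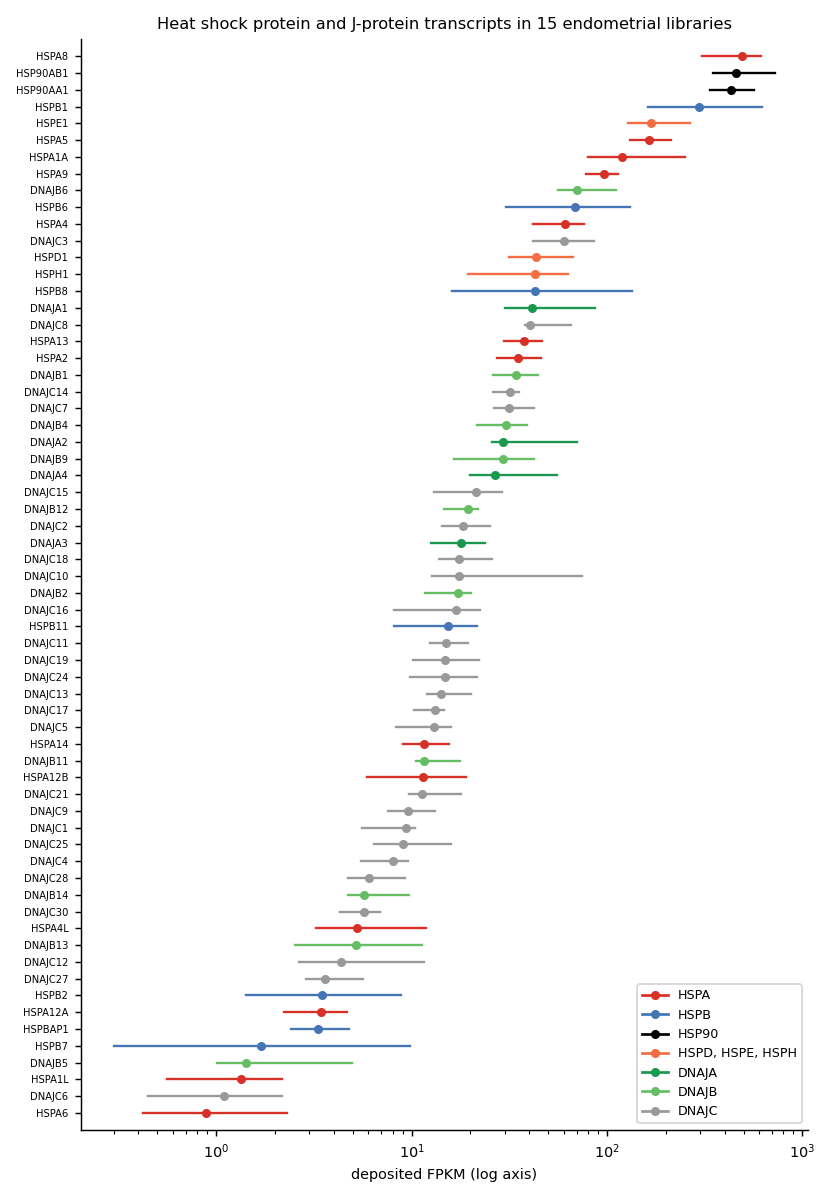
Deposited FPKM of the heat shock protein and J-protein genes that were tested and listed above 0 in every library, on a log axis; the point is the median and the line runs from the lowest to the highest of 15 libraries, coloured by name family. HSPA8, HSP90AB1 and HSP90AA1 lead with medians of 488, 459 and 429 FPKM, and HSPB7 has the longest line (0.300 to 9.79 FPKM).

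For 6 of the genes the table also holds a pseudogene row described as a copy, and the share of counts that the copy took moved with the library set. For DNAJC10, a disulfide reductase of the endoplasmic reticulum, the copy LOC539876 took 59.8 to 62.3% of the summed counts in the set of 8 and 62.7 to 63.3% in the set of 5. In the set of 2 it took 8.75% (High-fertile replicate 1; 95% Wilson interval 8.02 to 9.54) and 6.16% (Infertile replicate 2; 5.82 to 6.53). DNAJC10 itself was at 352 CPM in Infertile replicate 2 and at 60.2 to 127 CPM in the other 14 libraries. Summing gene and copy brought its coefficient of variation over the 15 libraries from 71.5 to 31.4%. These intervals and those of any count here cover counting error only.

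The other 5 pairs split in their own ways. For DNAJA1, a class A J-protein of the cytosol, LOC784704 took 57.5 to 67.8% of the summed counts in the set of 8, 62.8 to 70.1% in the set of 5 and 27.0 and 28.3% in the set of 2. DNAJA1 stood at 125 CPM in both libraries of the set of 2 and at 44.5 to 82.1 CPM elsewhere, and summing took its coefficient of variation from 35.7 to 19.6%. For DNAJC19, a part of the mitochondrial import motor, the copy share was 55.4 to 63.7%, 43.8 to 54.6% and 25.3 to 32.2% in the sets of 8, 5 and 2. The copy of HSP90AA1 took 12.2 to 16.1% in the set of 8, 19.7 to 22.6% in the set of 5 and 6.13 and 6.80% in the set of 2. That of HSP90AB1 took 5.19 to 6.12%, 11.7 to 12.2% and 4.65 and 5.06%. For HSPD1, the mitochondrial chaperonin, the copy share was 61.0 to 64.0%, 58.2 to 60.7% and 53.8 and 54.9%. In all 6 pairs both libraries of the set of 2 had the lowest copy shares.

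**Figure D2:**
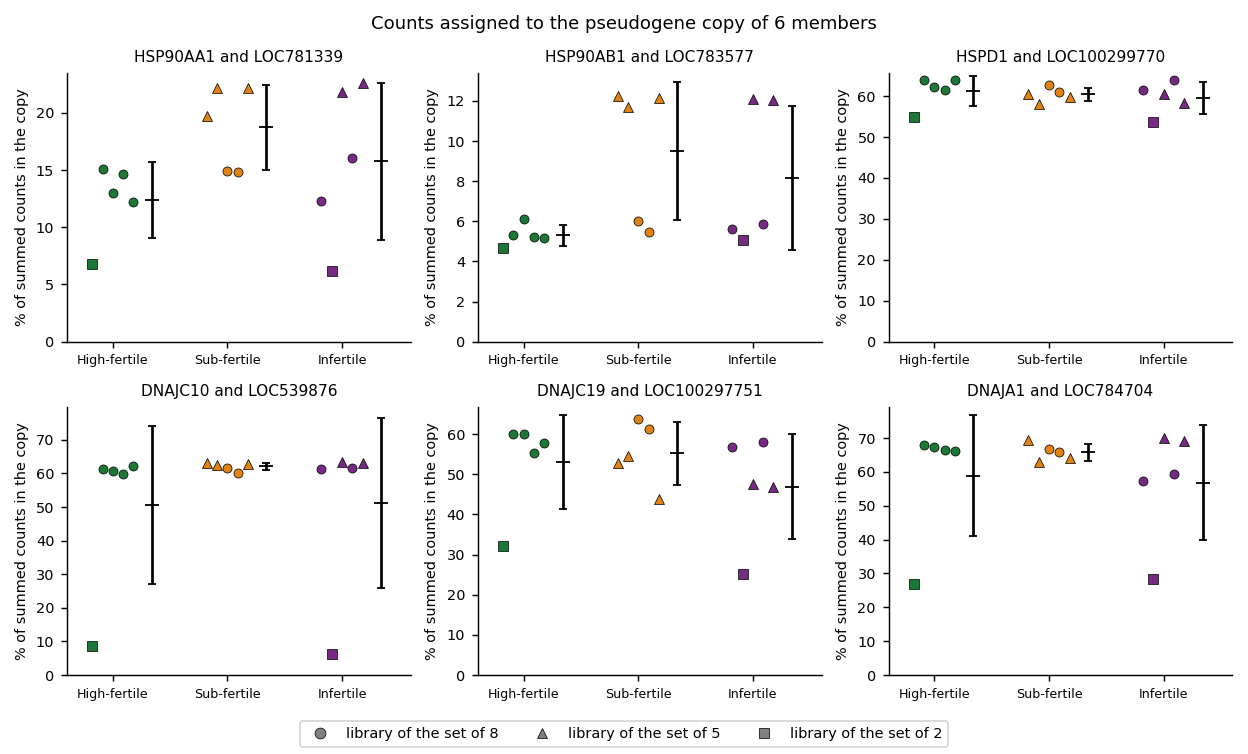
Share of the summed counts of a gene and its pseudogene copy that was assigned to the copy, in percent, for 6 genes; each symbol is a heifer, its shape the library set, and the bar beside each class is the mean ± SD of 5 heifers. In all 6 panels both squares (the set of 2) lie below every other library, and in both HSP90 panels every triangle (the set of 5) lies above every other library.

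Across the classes no member passed the threshold of 0.05 on the adjusted p in any comparison (edgeR quasi-likelihood test, p adjusted over 19962 genes), and neither did any other gene (percent called 0.0 in each). The smallest adjusted p of a member was 0.360 between Sub-fertile and High-fertile, 0.435 between Infertile and High-fertile, 0.998 between Infertile and Sub-fertile and 0.550 for any class difference (edgeR). At an unadjusted p under 0.05 stood 13 of the 66 genes (19.7%) between Sub-fertile and High-fertile, against 13.7% of all genes tested. Of these, 7 were higher (10.6%, all genes 6.58%) and 6 lower (9.09%, all genes 7.14%). Between Infertile and High-fertile the count was 10 (15.2%) against 11.0%, with 5 higher (7.58%, all genes 7.14%) and 5 lower (7.58%, all genes 3.89%). Between Infertile and Sub-fertile it was 1 (1.52%) against 2.63%, and that gene was higher (all genes 1.91%). For any class difference it was 7 (10.6%) against 8.42%. DESeq2 also called 0 members at an adjusted p under 0.05 in each test, though it did call other genes. Of all genes it called 0.0952% between Sub-fertile and High-fertile and 0.17% between Infertile and High-fertile. The shares were 0.0551% between Infertile and Sub-fertile and 0.17% for any class difference. At an unadjusted p under 0.05 DESeq2 had 17 members between Sub-fertile and High-fertile (25.8%, all genes 16.6%) and 11 between Infertile and High-fertile (16.7%, all genes 12.8%). It had 1 between Infertile and Sub-fertile (1.52%, all genes 3.03%) and 10 for any class difference (15.2%, all genes 11.6%).

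The counts at an unadjusted p under 0.05 moved with single libraries and with the library sets, and the share of all genes moved with them. Between Sub-fertile and High-fertile, leaving out Sub-fertile replicate 5 gave 3 members (4.55%, all genes 5.52%), and leaving out Sub-fertile replicates 1 and 2 in turn gave 6 (9.09%, all genes 7.43%) and 7 (10.6%, all genes 7.0%). Leaving out High-fertile replicates 1 and 3 in turn gave 5 (7.58%, all genes 8.55%) and 8 (12.1%, all genes 8.76%). With the library set as a covariate it was 1 (1.52%, all genes 2.51%), within the set of 8 it was 4 (6.06%, all genes 7.43%) and without the set of 2 it was 7 (10.6%, all genes 11.5%). Between Infertile and High-fertile the set as a covariate gave 4 (6.06%, all genes 7.66%) and the set of 8 gave 2 (3.03%, all genes 4.39%). Leaving out Infertile replicate 5 gave 3 (4.55%, all genes 6.34%), Infertile replicate 3 gave 5 (7.58%, all genes 6.92%), and High-fertile replicates 3 and 5 in turn gave 5 each (7.58%, all genes 7.88 and 7.07%). Leaving out Infertile replicate 2 gave 16 (24.2%, all genes 16.2%). Between Infertile and Sub-fertile the count of 1 ranged from 0 to 3 as libraries were left out: it was 0 without replicate 2 of either class or Sub-fertile replicate 4 (all genes 1.56, 1.92 and 3.51%), 2 without replicate 3 of either class (all genes 4.23 and 4.59%) and 3 without Infertile replicate 4 or 5 (4.55%, all genes 3.16 and 4.96%). It was 2 within the set of 8 (3.03%, all genes 4.71%) and 0 without the set of 2 (all genes 1.52%). For any class difference the count of 7 was 1 with the set as a covariate and 1 within the set of 8 (1.52%, all genes 3.9 and 5.21%), and 4 without the set of 2 (6.06%, all genes 7.96%). It was 3 when the fifth replicate of the High-fertile or the Sub-fertile class was left out (4.55%, all genes 4.44 and 5.69%) and 4 when High-fertile replicate 2 or 3 or Sub-fertile replicate 1 was (6.06%, all genes 6.46, 5.13 and 6.38%). Leaving out Sub-fertile replicate 4 gave 16 (24.2%, all genes 15.2%). Of the 13 genes, 7 (DNAJA3, DNAJB12, DNAJB14, DNAJB2, DNAJC13, DNAJC27 and HSPA1A) also had the set of 5 wholly above or below the set of 8, as had 57.6% of all genes at an unadjusted p under 0.05 in this comparison. Of the 10 genes, 3 (DNAJB2, DNAJC24 and HSPA1A) had it, against 26.4%. Whether class or library set goes with these values cannot be told apart for the Sub-fertile and Infertile libraries of the set of 5.

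The fold changes themselves went both ways. Without regard to sign, their median size was 0.25 between Sub-fertile and High-fertile (all genes 0.29). It was 0.22 between Infertile and High-fertile (all genes 0.25) and 0.12 between Infertile and Sub-fertile (all genes 0.16). The median log2 fold change of the 66 genes was 0.11 in Sub-fertile and 0.16 in Infertile against High-fertile heifers, beside 0.01 and 0.04 for all genes, and 0.03 between Infertile and Sub-fertile, beside 0.03. Values above 0 had 38 genes (57.6%, all genes 51.0%), 46 (69.7%, all genes 53.5%) and 40 (60.6%, all genes 54.7%). The first 2 comparisons share the High-fertile libraries. In 6 genes every Sub-fertile heifer lay below every High-fertile heifer (9.09%; 2.81% of all genes did so in this direction and 5.07% in either): HSPA2, HSPB2, HSPB6, DNAJB2, DNAJB12 and DNAJC17. In none did the reverse hold (0.0%, all genes 2.26%). In HSPB2, DNAJB2, DNAJB12 and DNAJC17 the set of 5 also lay wholly below the set of 8, as in 13.6% of all genes. That set holds no High-fertile library. DNAJB4, a J-protein of the cytosol, was the 1 gene whose Infertile and High-fertile values did not overlap (1.52%, all genes 2.22% in either direction, 1.13% higher and 1.1% lower), with 34.5 to 41.4 against 24.6 to 34.3 CPM and a log2 fold change of 0.28 ± 0.13 (SE). The set of 5 lay wholly above the set of 8 in this gene, and the fold change was 0.15 with the set as a covariate and 0.25 within the set of 8. Without the set of 2, DNAJC28 and HSPA12A were also separated between Infertile and High-fertile, both higher, and DNAJB11 between Sub-fertile and High-fertile, higher. The share of all genes separated without the set of 2 was not computed. With fewer heifers in a class the shares above do not apply, so these 3 genes have no background to be read against. Between Infertile and Sub-fertile none of the 66 was separated (0.0%, all genes 0.205% in either direction, 0.12% higher and 0.0852% lower).

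**Figure D3:**
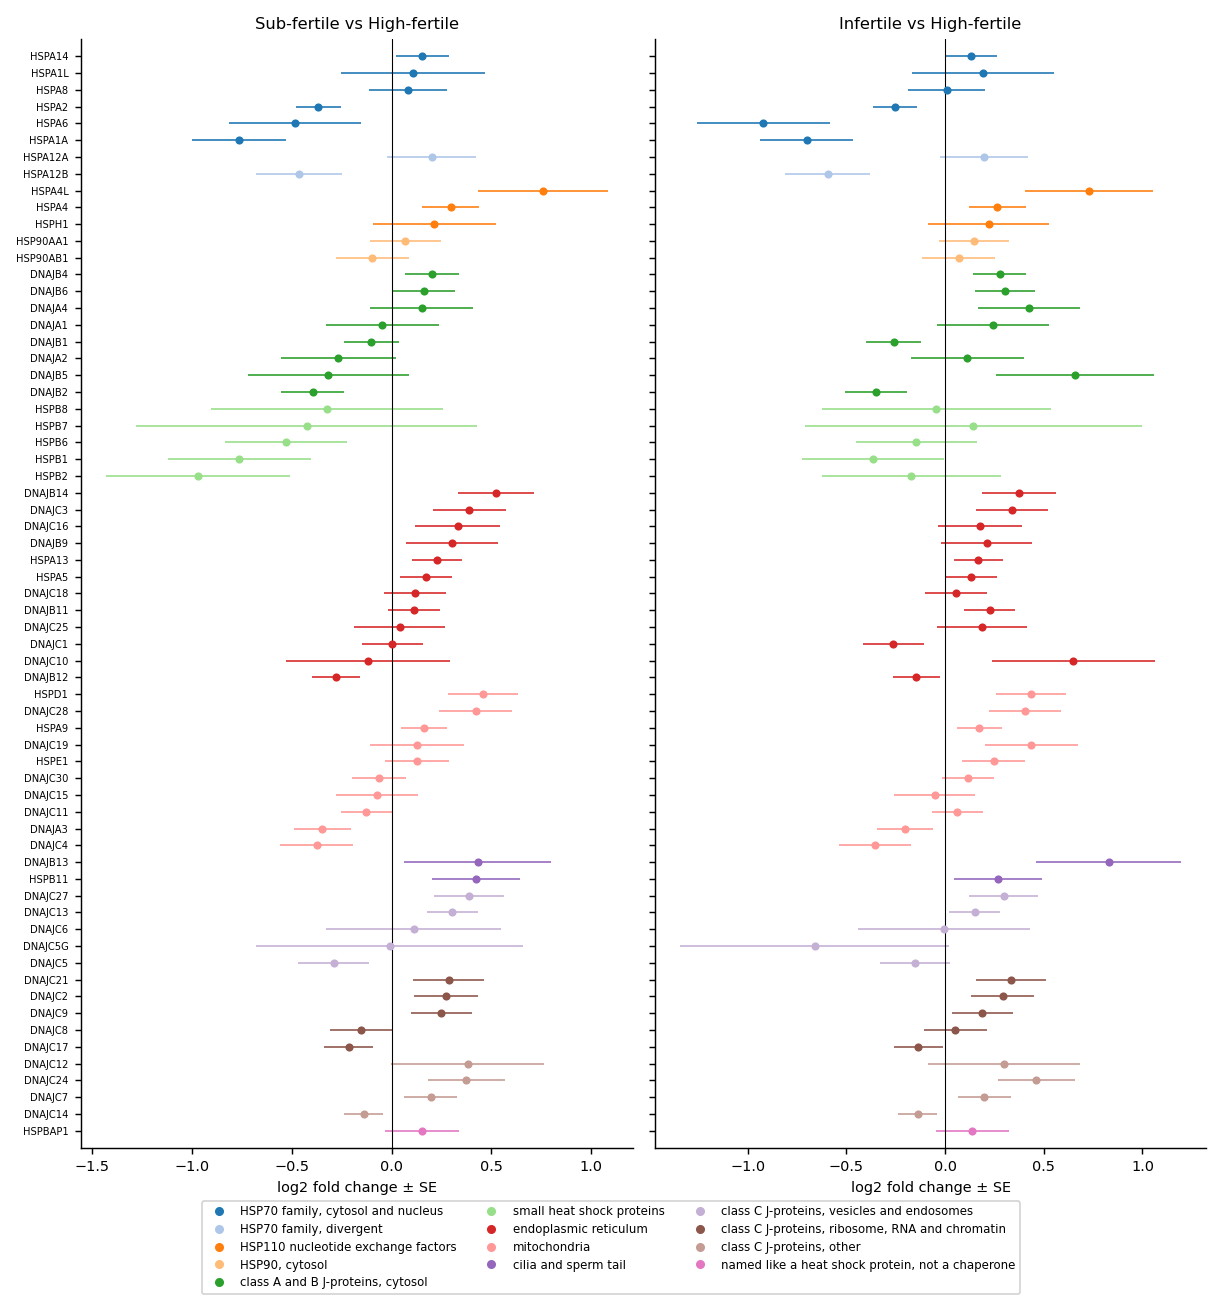
Log2 fold change ± SE from the edgeR fit for the genes with an SE under 1, by role (colour), Sub-fertile (left) and Infertile (right) against the same 5 High-fertile heifers. HSPA1A and HSPA12B lie left of 0 in both panels and HSPA4L and HSPD1 right of 0. All 5 small heat shock proteins, without HSPB11 of the cilia role, lie left of 0 in the Sub-fertile panel.

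Of the 6 cytosolic HSP70 genes, 3 were lower and 3 higher in each class than in the High-fertile class, with the largest differences in the inducible members. HSPA1A was at 451, 532, 253, 326 and 347 CPM in High-fertile replicates 1 to 5. It was at 215, 165, 284, 230 and 230 CPM in the Sub-fertile and at 364, 177, 172, 253 and 208 CPM in the Infertile replicates. The 2 highest libraries were both High-fertile, and only Sub-fertile replicate 3 and Infertile replicate 1 lay above the lowest High-fertile heifer, replicate 3. The log2 fold changes were -0.76 ± 0.24 and -0.70 ± 0.24 (SE), with edgeR adjusted p of 0.360 and 0.435. They were -0.55 and -0.56 with the library set as a covariate, and -0.52 and -0.25 within the set of 8. Leaving out 1 library at a time gave -0.88 to -0.62 and -0.92 to -0.55.

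HSPA2, an HSP70 best known from male germ cells, differed less but more evenly. It was at 75.4, 75.1, 82.4, 67.8 and 87.4 CPM in High-fertile and at 66.5, 53.8, 67.4, 60.6 and 52.4 CPM in Sub-fertile heifers, and the Infertile heifers were at 70.3, 73.9, 56.7, 65.4 and 59.0 CPM. All Sub-fertile values lay below all High-fertile values (the nearest pair at 67.8 and 67.4 CPM), and the Infertile values lay between or overlapped both. The log2 fold changes were -0.37 ± 0.11 and -0.25 ± 0.11 (SE; edgeR adjusted p 0.360 and 0.450), and -0.24 and -0.18 with the set as a covariate. HSPA6, an inducible HSP70 that barely appears in unstressed cells, stood at 2.62, 5.83, 2.54, 2.93 and 2.58 CPM in High-fertile and at 1.80, 1.04, 1.77, 1.23 and 2.89 CPM in Infertile heifers. High-fertile replicate 2 stood above the 2.54 to 2.93 CPM of the rest of its class, and only Infertile replicate 5 lay within that class's range. The log2 fold change of -0.92 ± 0.33 became -0.61 without High-fertile replicate 2 and was -0.97 with the set as a covariate. The constitutive HSPA8 differed by 0.08 ± 0.20 and 0.01 ± 0.20, and HSPA1L by 0.11 ± 0.36 and 0.19 ± 0.36, of which HSPA1L turned to -0.30 and -0.10 with the set as a covariate.

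**Figure D4:**
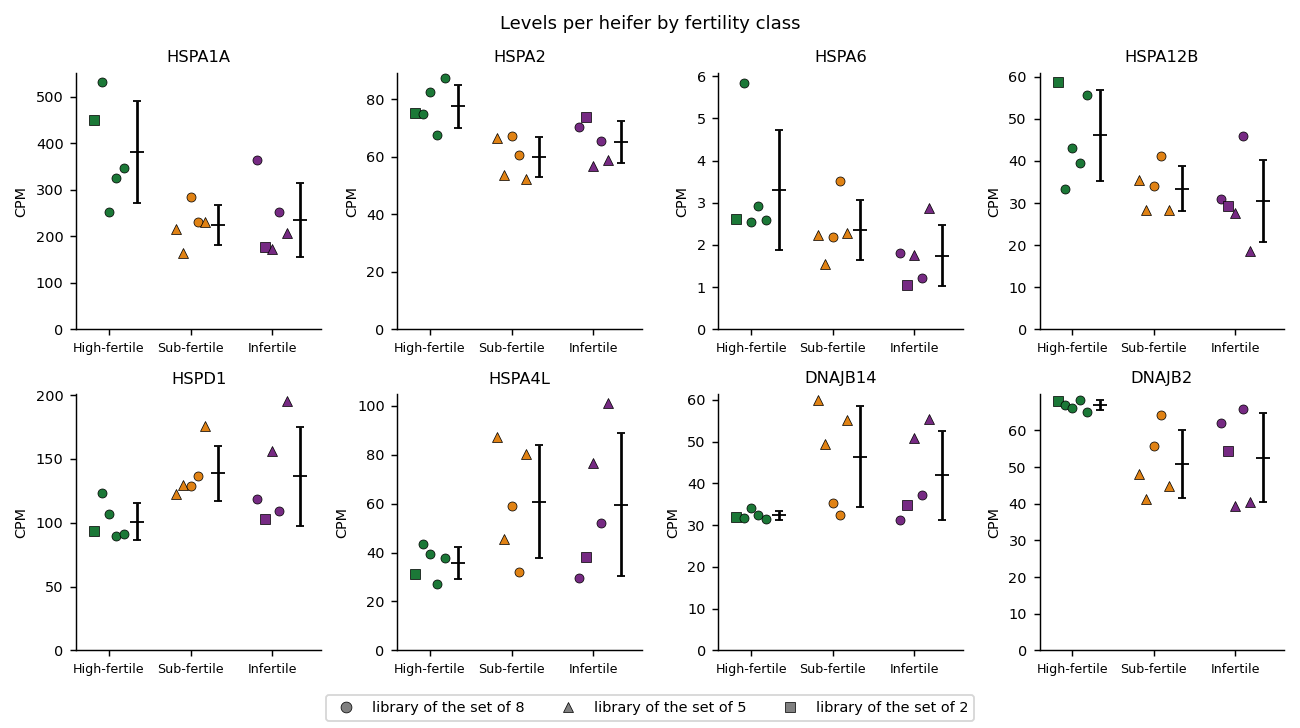
CPM of 8 genes in each heifer by fertility class; the symbol shape gives the library set and the bar the mean ± SD of 5 heifers. Every Sub-fertile value of HSPA2 and DNAJB2 lies below every High-fertile value, and for DNAJB14 and DNAJB2 the triangles (the set of 5) lie apart from the circles.

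The HSP110 genes, which exchange the nucleotide of HSP70, were higher in both classes than in the High-fertile heifers (3 of 3, medians 0.30 and 0.26), none at an adjusted p under 0.05 with edgeR. Limma-voom with quality weights called 39.4% of the members and 35.9% of all genes between Sub-fertile and High-fertile. Of the HSP110 genes it called HSPA4, with 0.34 ± 0.11 and an adjusted p of 0.0300. HSPA4L, the widest of them, was at 31.3, 43.7, 39.5, 27.3 and 37.8 CPM in High-fertile, at 87.2, 45.4, 59.0, 32.0 and 80.2 CPM in Sub-fertile and at 29.7, 38.3, 76.6, 52.2 and 101 CPM in Infertile heifers. The 4 values above 75 CPM were all from the set of 5, and the fifth library of that set was at 45.4 CPM. Its log2 fold changes of 0.76 ± 0.32 and 0.73 ± 0.32 became 0.17 and 0.28 with the set as a covariate, and 0.28 and 0.13 within the set of 8. HSPH1 had 0.22 ± 0.31 in both comparisons, over 71.2 to 229 CPM in the 15 libraries, and -0.10 and -0.04 with the set as a covariate. The HSP90 genes differed little: HSP90AA1 by 0.07 ± 0.18 and 0.15 ± 0.18, and HSP90AB1 by -0.10 ± 0.18 and 0.07 ± 0.18. Summed with their copies they had 0.18 and 0.21, and -0.03 and 0.11. For the genes alone, without their copies, the Infertile values were 0.07 (HSP90AA1) and -0.12 (HSP90AB1) when Infertile replicate 2 was left out.

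Of the 8 class A and B J-proteins of the cytosol that were tested, 3 were higher and 5 lower in Sub-fertile and 6 higher and 2 lower in Infertile than in High-fertile heifers. DNAJB1, the J-protein that HSF1 induces together with HSPA1A, had -0.10 ± 0.14 and -0.26 ± 0.14. DNAJB2, which passes clients to the proteasome, was at 65.1 to 68.4 CPM in all 5 High-fertile heifers, at 48.1, 41.3, 55.8, 64.3 and 44.8 CPM in Sub-fertile and at 62.1, 54.4, 39.5, 65.9 and 40.5 CPM in Infertile heifers. The 5 lowest values were the 5 libraries of the set of 5 (39.5 to 48.1 CPM, against 55.8 to 68.4 in the set of 8). Its log2 fold changes of -0.40 ± 0.16 and -0.35 ± 0.16 were -0.11 and -0.17 with the set as a covariate. DNAJA1 had -0.05 ± 0.28 and 0.24 ± 0.28, and 0.24 in both with its copy added. Its Sub-fertile value was 0.32 without High-fertile replicate 1, and its Infertile value 0.01 without Infertile replicate 2. DNAJB5, a low class B J-protein, was the 1 gene at an unadjusted p under 0.05 between Infertile and Sub-fertile. Infertile replicates 1 and 2 were at 5.57 and 6.34 CPM and all 13 other heifers at 1.27 to 2.41 CPM. Its log2 fold change was 0.98 ± 0.40 (edgeR adjusted p 0.998), and 0.59 without Infertile replicate 2. It was 0.49 with the set as a covariate and 1.20 within the set of 8.

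Of the 10 mitochondrial genes 5 were higher and 5 lower in Sub-fertile, and 7 higher and 3 lower in Infertile than in High-fertile heifers. HSPD1, the chaperonin that folds imported proteins in the matrix, was at 93.3, 124, 107, 89.9 and 90.9 CPM in High-fertile heifers. It was at 122, 130, 129, 136 and 176 CPM in Sub-fertile and at 118, 103, 157, 109 and 195 CPM in Infertile heifers. Only High-fertile replicate 2 reached the Sub-fertile range, while the Infertile class overlapped the High-fertile class in 3 of its 5 heifers. The log2 fold changes were 0.46 ± 0.18 and 0.44 ± 0.18 (SE; edgeR adjusted p 0.360 and 0.439), 0.41 and 0.36 with the copy added, and 0.21 and 0.26 with the set as a covariate. Within the set of 8 those of HSPD1 were 0.36 and 0.13. HSPE1, the lid of the same chaperonin, had 0.13 ± 0.16 and 0.25 ± 0.16. The Infertile value of HSPE1 was 0.10 without Infertile replicate 2, 0.14 with the set as a covariate and -0.10 within the set of 8. HSPA9, the HSP70 of the matrix, had 0.16 ± 0.11 and 0.17 ± 0.11. DNAJA3, a J-protein partner of HSPA9, had -0.35 ± 0.14 and -0.20 ± 0.14, which were -0.10 and -0.06 with the set as a covariate. DNAJC11 and DNAJC30, both of mitochondria, had -0.13 ± 0.13 and -0.06 ± 0.13 in Sub-fertile and 0.06 ± 0.13 and 0.12 ± 0.13 in Infertile heifers. In the Sub-fertile heifers both turned direction, to 0.05 each with the set as a covariate and to 0.16 and 0.13 within the set of 8.

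In the endoplasmic reticulum 10 of 12 genes were higher and 2 lower in each class than in the High-fertile class, with medians of 0.15 and 0.18. HSPA5 had 0.17 ± 0.13 and 0.13 ± 0.13, within its spread of 287 to 458 CPM over the 15 heifers, and 0.07 and -0.08 within the set of 8. DNAJC3, which joins HSPA5 and also inhibits the eIF2α kinases, had 0.39 ± 0.18 and 0.34 ± 0.18, and DNAJB9, a target of the unfolded protein response, 0.30 ± 0.23 and 0.21 ± 0.23. With the set as a covariate DNAJC3 had 0.23 and 0.26 and DNAJB9 0.04 and 0.06, and within the set of 8 they had 0.35 and 0.17, and 0.13 and 0.06. DNAJB14, a J-protein of the membrane of this compartment, was at 31.4 to 34.0 CPM in High-fertile heifers, at 59.9, 49.4, 35.2, 32.5 and 55.1 CPM in Sub-fertile and at 31.3, 34.8, 50.9, 37.1 and 55.4 CPM in Infertile heifers. The 5 values above 49 CPM were the set of 5 and the other 10 libraries stayed at or below 37.1 CPM. Its log2 fold changes of 0.52 ± 0.19 and 0.37 ± 0.19 became 0.09 and 0.08 with the set as a covariate. DNAJC10 had 0.65 ± 0.41 in Infertile heifers, -0.07 without Infertile replicate 2, and 0.43 with its copy added. DNAJC1, another membrane J-protein, had 0.00 ± 0.15 and -0.26 ± 0.15.

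HSPB11 is counted here with the genes of cilia. The other 5 small heat shock proteins tested were all lower in Sub-fertile than in High-fertile heifers (median -0.53). They were all higher in Infertile than in Sub-fertile heifers (median 0.40), and none was at an unadjusted p under 0.05 (edgeR). HSPB11 went the other way, with 0.42 and -0.15, and had 0.27 in Infertile against High-fertile heifers. With limma-voom and quality weights HSPB1 and HSPB2 had adjusted p of 0.0050 and 0.0112 between Sub-fertile and High-fertile. HSPB1, the broad-range member, was at 496, 465, 376, 265 and 335 CPM in High-fertile, at 173, 194, 199, 394 and 180 CPM in Sub-fertile and at 591, 376, 169, 220 and 148 CPM in Infertile heifers. Sub-fertile replicate 4 stood apart from its class, within the High-fertile range. The log2 fold change of -0.76 ± 0.36 was -1.06 without that heifer and -0.15 with the set as a covariate. HSPB6, a partner of the actin cytoskeleton in muscle, was at 111 to 131 CPM in High-fertile and 65.6 to 99.6 CPM in Sub-fertile heifers without overlap, and at 207, 142, 63, 86.6 and 46.2 CPM in Infertile heifers. It had -0.53 ± 0.31, which was -0.09 with the set as a covariate and -0.61 within the set of 8. HSPB2, a low member known from muscle, was at 3.34 to 5.71 against 1.28 to 3.0 CPM and had -0.97 ± 0.46, and -0.10 with the set as a covariate. HSPB7 and HSPB8 had SEs of 0.86 and 0.58, wider than their fold changes of -0.43 and -0.32. HSPB8 turned to 0.32 with the set as a covariate, and HSPB7 to 0.16 without High-fertile replicate 2.

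Smooth muscle markers were read beside them. All 15 of 15 were lower in Sub-fertile than in High-fertile (median -0.93) and higher in Infertile than in Sub-fertile heifers (median 0.99), with 0 adjusted calls (edgeR) and 0 at an unadjusted p under 0.05. Between Infertile and High-fertile the directions parted: 9 of 15 smooth muscle markers were higher (median 0.07), and 4 of 5 small heat shock proteins lower (median -0.15). LMOD1, a muscle actin nucleator, had -1.22 ± 0.77 in Sub-fertile against High-fertile and 1.17 ± 0.77 in Infertile against Sub-fertile heifers, and SYNPO2 0.29 ± 0.81 in Infertile against High-fertile heifers. None of the 15 markers was at 0 in all libraries. Their summed level was 1882 to 16141 CPM in High-fertile, 1511 to 8442 in Sub-fertile and 1378 to 32287 CPM in Infertile heifers, the last in Infertile replicate 1. That heifer also held the highest value of all 5 small heat shock proteins, with 591 CPM of HSPB1, 7.92 of HSPB2, 207 of HSPB6, 22.8 of HSPB7 and 274 CPM of HSPB8. Without it, the differences between Infertile and Sub-fertile were -0.00 for HSPB1, 0.29 for HSPB2, 0.01 for HSPB6, -0.70 for HSPB7 and -0.35 for HSPB8. With the set as a covariate and all heifers kept, these 5 differences were 0.06, 0.22, 0.08, 0.34 and 0.07 in the same order. The part of the muscle share of a biopsy in the small heat shock protein values was not tested beyond the relation below.

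Among the genes of cilia, DNAJB13, a part of the radial spokes of motile cilia and sperm tails, was at 4.90, 4.42, 5.66, 3.0 and 6.41 CPM in High-fertile heifers. It was at 6.01, 2.89, 12.6, 3.80 and 7.58 CPM in Sub-fertile and at 4.78, 7.64, 7.91, 11 and 12 CPM in Infertile heifers. In the Infertile class 4 of 5 heifers lay above all High-fertile heifers, and the Sub-fertile class spread over both. The log2 fold change was 0.83 ± 0.37 in Infertile (edgeR adjusted p 0.450) and 0.43 ± 0.37 in Sub-fertile heifers, the latter 0.06 without Sub-fertile replicate 3. Of 16 tested markers of ciliated epithelium all were higher in Infertile than in High-fertile heifers (median 0.94). At an unadjusted p under 0.05 stood 11 of them (all genes higher 7.14%), and none at an adjusted p under 0.05 (edgeR). ARMC3 had 1.51 ± 0.46 in Infertile and DNAH5, an axonemal dynein, 0.88 ± 0.37 in Sub-fertile heifers, and TPPP3 had 0.43 ± 0.25 between Infertile and Sub-fertile. The summed level of the markers was 272 to 545 CPM in High-fertile, 299 to 1099 in Sub-fertile and 387 to 1091 CPM in Infertile heifers, and no marker was at 0 in all libraries. Their part in the DNAJB13 difference was not tested beyond the relation below.

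HSPA12B, a divergent HSP70 known from endothelial cells, was at 58.9, 33.4, 43.2, 39.5 and 55.6 CPM in High-fertile heifers. It was at 35.4, 28.3, 34.0, 41.2 and 28.4 CPM in Sub-fertile and at 31.1, 29.3, 27.5, 45.9 and 18.7 CPM in Infertile heifers. Beside Infertile replicate 4, the other 4 Infertile heifers lay below every High-fertile heifer. The log2 fold changes were -0.46 ± 0.22 and -0.60 ± 0.22 (SE; edgeR adjusted p 0.360 and 0.435), -0.18 and -0.44 with the set as a covariate, and -0.20 and -0.17 within the set of 8. Of 12 endothelium markers, 11 were lower in each class than in the High-fertile class (medians -0.44 and -0.50). At an unadjusted p under 0.05 stood 3 and 4 of them (all genes lower 7.14 and 3.89%), and none at an adjusted one (edgeR). ENG had -0.66 ± 0.28 in Sub-fertile and TIE1 -0.56 ± 0.23 in Infertile heifers, and TEK -0.32 ± 0.17 between Infertile and Sub-fertile. The sum of the markers was 1035 to 1914 CPM in High-fertile, 878 to 1331 in Sub-fertile and 857 to 1266 CPM in Infertile heifers, with no marker at 0 in all libraries, and their part in the HSPA12B values was not tested beyond the relation below. DNAJC24, which takes part in making diphthamide on elongation factor 2, had 0.37 ± 0.19 and 0.46 ± 0.19, and -0.01 and 0.21 with the set as a covariate.

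Across the 15 heifers, 6 pairs of a member and another gene were compared on log2 CPM, with permutation p adjusted over the 6. HSPA5 followed HSP90B1, its HSP90 partner in the endoplasmic reticulum, with Pearson r 0.95 and Spearman rho 0.91. The permutation p of r was 1e-05, the smallest that 100000 permutations can give (6e-05 adjusted), and that of rho 2e-05 (0.00012 adjusted). The relation was 0.94 within the set of 8 and 0.93 without the 2 heifers farthest from the median of HSPA5. DNAJB13 followed FOXJ1, the transcription factor of motile cilia, with r 0.77 and rho 0.73 (permutation p 0.00114 and 0.00271; 0.00342 and 0.00813 adjusted). Here r was 0.89 within the set of 8 and 0.62 without the 2 farthest heifers.

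HSPB6 and ACTA2, the actin of smooth muscle, had r 0.61 and rho 0.60 (permutation p 0.0151 and 0.0196; 0.0302 and 0.0392 adjusted). Without Infertile replicates 1 and 5, the 2 farthest, r was 0.34. Leaving them out also narrows the range of HSPB6, so whether the relation rests on those heifers was not tested. Within the set of 8, which holds Infertile replicate 1, r was 0.62. The other 3 pairs did not pass. HSPA12B and PECAM1, an endothelial surface protein, had r 0.38 and rho 0.33 (permutation p 0.167 and 0.232; 0.200 and 0.292 adjusted), 0.72 within the set of 8 and 0.30 without the 2 farthest. HSPA1A and DNAJB1, both targets of HSF1, had r 0.39 and rho 0.32 (permutation p 0.146 and 0.243; 0.200 and 0.292 adjusted), 0.34 within the set of 8 and 0.06 without High-fertile replicates 1 and 2. HSPA1A and FOS, an immediate early gene, had r -0.07 and rho -0.03 (permutation p 0.800 and 0.923, the same after adjustment), 0.03 within the set of 8 and 0.13 without the 2 farthest. The sets of 5 and 2 hold under 6 heifers and give no value of their own.

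**Figure D5:**
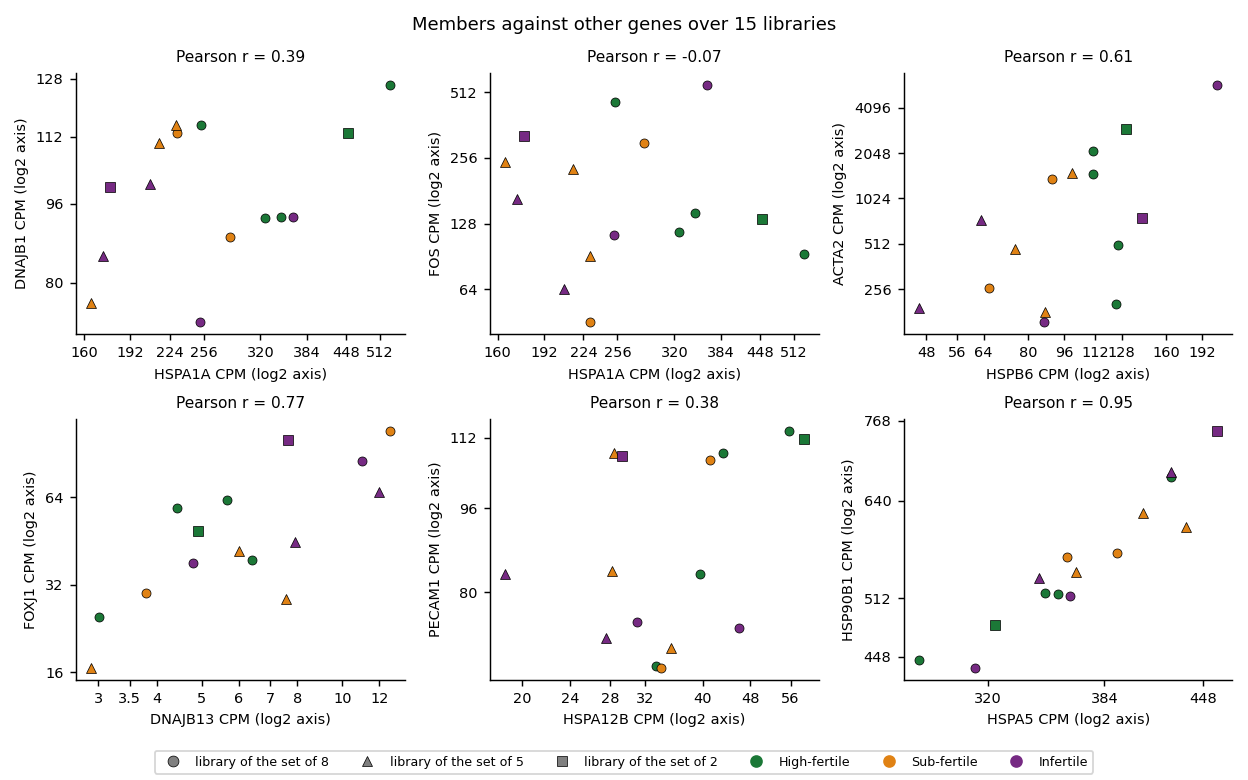
CPM of a member (x, log2 axis) against another gene (y, log2 axis) in 15 heifers for 6 pairs; colour gives the class and shape the library set. HSPA5 and HSP90B1 (r 0.95) lie along a line through all classes and sets, and the HSPB6 and ACTA2 points (r 0.61) reach far to the upper right through Infertile replicate 1.

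The regulators and partners of these chaperones gave no adjusted call either. HSF1 was at 56.9 to 64.4 CPM in High-fertile, 28.3 to 60.8 in Sub-fertile and 30.4 to 57.9 CPM in Infertile heifers, with log2 fold changes of -0.57 ± 0.22 and -0.43 ± 0.22 (edgeR adjusted p 0.360 and 0.476). The library sets split it: 28.3 to 33.0 CPM in the set of 5 and 49.4 to 64.4 CPM in the other 10. Of 29 HSF factors and cytosolic cochaperones tested, 11 were higher and 18 lower in Sub-fertile than in High-fertile heifers (median -0.24) and 15 higher and 14 lower in Infertile heifers (median 0.01). At an unadjusted p under 0.05 (edgeR) stood 7 of the lower and 1 of the higher ones in Sub-fertile heifers (all genes 7.14 and 6.58%). In Infertile heifers it was 1 lower and 1 higher (all genes 3.89 and 7.14%). BAG3, which hands HSP70 clients to autophagy with HSPB8, had -0.38 ± 0.24 and -0.56 ± 0.24, and SUGT1, an HSP90 cochaperone, 0.36 ± 0.14 and 0.35 ± 0.14. FKBP4 and FKBP5, the immunophilins of steroid receptor complexes, had -0.41 ± 0.24 and 0.22 ± 0.37 in Sub-fertile heifers. CRYAB, a small heat shock protein outside the name pattern, had -0.52 ± 0.38 and -0.21 ± 0.38, and SERPINH1, the collagen chaperone, -0.65 ± 0.38 and -0.19 ± 0.38.

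Of 14 subunits of the cytosolic chaperonin and of prefoldin, which fold actin and tubulin, 8 were higher in Sub-fertile and 12 in Infertile than in High-fertile heifers, and all 14 were higher in Infertile than in Sub-fertile heifers (median 0.13). VBP1, a prefoldin subunit, had 0.35 ± 0.15 and 0.42 ± 0.15, and TCP1 0.04 ± 0.14 and 0.28 ± 0.14. Of 22 other chaperones and unfolded protein response genes of the endoplasmic reticulum, 7 were higher and 15 lower in Sub-fertile and 10 higher and 12 lower in Infertile than in High-fertile heifers (medians -0.08 and -0.04). HSP90B1 had 0.14 ± 0.15 and 0.15 ± 0.15 and CANX, the lectin chaperone calnexin, 0.29 ± 0.12 and 0.20 ± 0.12. SEL1L and SYVN1, both of the degradation pathway of this compartment, had 0.24 ± 0.10 and 0.11 ± 0.10, and -0.19 ± 0.17 and -0.32 ± 0.17. Of the 12 proteases and chaperones of the mitochondrial list, 5 were higher and 7 lower in Sub-fertile, and 6 each way in Infertile heifers. HTRA2 had -0.26 ± 0.11 and -0.23 ± 0.11 and YME1L1, both proteases, 0.28 ± 0.13 and 0.27 ± 0.13, and CLPB -0.17 ± 0.09 between Infertile and Sub-fertile. Of 20 immediate early genes, which also answer to tissue handling, 3 were higher and 17 lower in Sub-fertile heifers (median -0.26). At an unadjusted p under 0.05 (edgeR) stood 2 of the lower ones (all genes lower 7.14%). In Infertile heifers 10 were higher and 10 lower (median -0.01), 3 of the lower ones at an unadjusted p under 0.05 (all genes lower 3.89%). GADD45B, the list's gene of smallest p in Sub-fertile heifers, had -0.61 ± 0.22 and -0.64 ± 0.22. FOSL2, that of smallest p in Infertile heifers, had -0.22 ± 0.16 and -0.59 ± 0.16. FOS had -0.06 ± 0.62 and 0.36 ± 0.62, EGR1 -0.00 ± 0.53 and 0.41 ± 0.53 and ATF3 -0.33 ± 0.41 and 0.61 ± 0.41.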

How the data were processed

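PolyA RNA of 15 endometrium biopsies, 1 per heifer, was sequenced from stranded TruSeq libraries, per the labels' protocols. The deposited table gives, side by side, raw counts per gene and FPKM values that the authors computed. Both came from FastQC, Subread, featureCounts and edgeR on UMD3.1, per the submitters' processing notes; the sources used here do not give versions, the strand setting or the treatment of multi-mapping reads. FPKM served only to compare levels between genes. Classes came from the labels.

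Counts were scaled by TMM, filtered with filterByExpr (19962 genes left) and fitted over all 15 libraries with edgeR 4.0.16 (robust quasi-likelihood test, two-sided, 12 residual degrees of freedom, R 4.3.3), with p adjusted by Benjamini-Hochberg over all genes tested and a threshold of 0.05. Fold changes are log2 with the SE of the fit. The fit was tested on simulated data with known changes. DESeq2 1.42.0, limma 3.58.1 (voom), other scalings and filters, left-out libraries, the library set as a covariate and, added after seeing the data, the sum of a gene and its pseudogene copy were alternatives. The members, gene lists, gene pairs and library sets were chosen with earlier results of these data known. Genes named are a chosen core of 23 members, the 6 members of smallest p in each test, chosen partner genes and the smallest-p genes of the chaperone, immediate early, smooth muscle, ciliated and endothelium lists. DNAJB11, HSPB11, HSPA12A, HSPA4, DNAJC14, DNAJC17, DNAJC19, DNAJB6, DNAJB12 and the undetected or copy-bearing genes were added after their values were seen. Depth limits the lowest genes: 3 counts equal 0.0477 to 0.0789 CPM. No coordinates or sequences are given, since no genome of this build was used here.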

Additional observations from a re-analysis of the deposited data

Results flagged for a closer look

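Of 102 groups examined (34 named members in 3 classes), 10 held a heifer whose gap to the nearest of its class, over the range of the class, exceeded Dixon's critical value of 0.71; chance gives about 1 in 20 groups. Among the chaperones of the cytosol, HSPA6 was at 5.83 CPM in High-fertile replicate 2 against 2.54 to 2.93 in the rest of the class, and HSPH1 was at 76.5 CPM in Infertile replicate 4 against 155 to 186. DNAJA1 was at 125 CPM in High-fertile replicate 1 against 44.5 to 60.5.

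HSPB7 and HSPB8 were at 22.8 and 274 CPM in Infertile replicate 1, the heifer with the highest smooth muscle marker sum, against 0.638 to 4.46 and 37.7 to 105. HSPB1 was at 394 CPM in Sub-fertile replicate 4 against 173 to 199.

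HSPD1 was at 176 CPM in Sub-fertile replicate 5 against 122 to 136, and DNAJC30 at 19.1 CPM in Infertile replicate 4 against 16.0 to 16.8. DNAJC10 was at 352 CPM in Infertile replicate 2 against 65.7 to 113, and DNAJC1 at 18.0 CPM in High-fertile replicate 1 against 25.0 to 27.5. The 3 flags of DNAJA1, DNAJC1 and DNAJC10 were in High-fertile replicate 1 and Infertile replicate 2, the set of 2 libraries without RN18S1 counts.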

How the results depend on the processing

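The count of 0 members called was also 0 in all 4 tests with DESeq2, the edgeR likelihood ratio test, limma-voom, the other scalings and filters, the copy sums and each library left out in turn. Some of these settings did call other genes. Of all genes DESeq2 called 0.0551 to 0.17% and the likelihood ratio test 0.0401 to 0.215% over the 4 tests. Limma-voom called at most 0.00501% and the fits with a library left out at most 0.0148%. With limma-voom and sample quality weights the count of members was 26 between Sub-fertile and High-fertile (39.4%, beside 35.9% of all genes) and 17 for any class difference (25.8%, beside 26.6%). In the first, HSPA2 had an adjusted p of 0.0040, DNAJB2 0.0041, DNAJB12 and DNAJB14 0.0042, HSPB1 0.0050 and HSPA1A 0.0099. The cause of these calls was not tested. The members' median log2 fold change stayed between 0.00 and 0.15 in the first comparison and between 0.05 and 0.21 for Infertile against High-fertile over the settings. Among single values, r of HSPA1A and FOS was 0.032 within the largest library set against -0.07 over all heifers. No paired analysis was possible because replicate numbers follow accession order and pair no heifers. With 5 heifers a class, the SE of a member named with values reached 0.86 on the log2 scale (HSPB7), and depth limits only the lowest genes.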
